A study of Mus musculus with 4 samples.

Results

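This report describes 10 mouse genes that restrain growth signalling, and the binding of the transcription factor ATF4 beside them in cortical neurons. The genes were chosen by name, for their roles as brakes, with earlier results of these peak lists known, so their counts are descriptions and not independent evidence. They are the sestrins Sesn1, Sesn2 and Sesn3, Ddit4 and its paralogue Ddit4l, the tribbles genes Trib1, Trib2 and Trib3, and the 4E-binding proteins Eif4ebp1 and Eif4ebp2. These are 10 of the 21887 coding genes placed on mouse chromosomes in the RefSeq table used. A peak was assigned to a gene when its summit lay inside the gene or within 50 kb of it.

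ATF4 chromatin immunoprecipitation and sequencing (ChIP-seq) was done on primary cortical neurons from CD1 mouse embryos at embryonic day 14.5 to 15, grown with 2 µM cytosine arabinoside against dividing cells. The compared libraries came from neurons given lentivirus on day 6 and collected on day 11, labelled shControl (genotype WT) in 1 case and shOpa1 (genotype Opa1 knock-down) in the other, where Opa1 encodes a GTPase of the inner mitochondrial membrane. The series also has 1 normal IgG and 1 input library of shControl neurons, which were not analysed here. Each condition had 1 library, so no difference between conditions was tested. The sources used here do not say whether neurons of several litters were pooled. A peak list measures no RNA, so neither the Opa1 knock-down nor the neuronal identity of the cells could be checked against marker genes.

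There were 93 peaks in the control list and 952 peaks after knock-down. The sources used here give neither the sequencing depth nor the calling thresholds. Tags in peaks summed to 2424 and 33318. For each peak the authors gave a tag number and a fold enrichment, the ratio of the signal to the background the peak caller estimated. The median fold was 7.53 for control peaks and 8.13 for knock-down peaks. Folds and tags come from separate calls and are not scaled between libraries, so they describe a peak within its own list.

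The kinase complex mTORC1 drives protein synthesis and growth when amino acids and growth factors are plentiful, and AKT relays the growth factor signal to it. Sestrins act on the amino acid branch, where SESN2 holds back the GATOR2 complex and lets it go when SESN2 binds leucine. DDIT4, also called REDD1, acts through the TSC complex, TRIB3 is a pseudokinase that can bind AKT, and the 4E-BPs sit at the end of the pathway, where they hold the cap-binding factor eIF4E until mTORC1 phosphorylates them. ATF4 is the transcription factor of the integrated stress response, and pairs with C/EBP proteins on a composite element made of an ATF site joined to a C/EBP site.

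In the knock-down list 4 of the 10 genes had a peak, 1 in each of the 4 families: Sesn2, Ddit4, Trib3 and Eif4ebp1. Each had a single peak, and each peak had that gene as its nearest coding gene. In the control list 1 of the 10 had a peak, Ddit4. As background, 6.23% of all coding genes had a knock-down summit inside or within 50 kb and 0.927% a control summit. All of these summits were also within 5 kb, where the background was 2.65% for the knock-down list and 0.324% for the control list. The remaining 6 genes, Sesn1, Sesn3, Ddit4l, Trib1, Trib2 and Eif4ebp2, had no peak in either list.

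**Figure D1:**
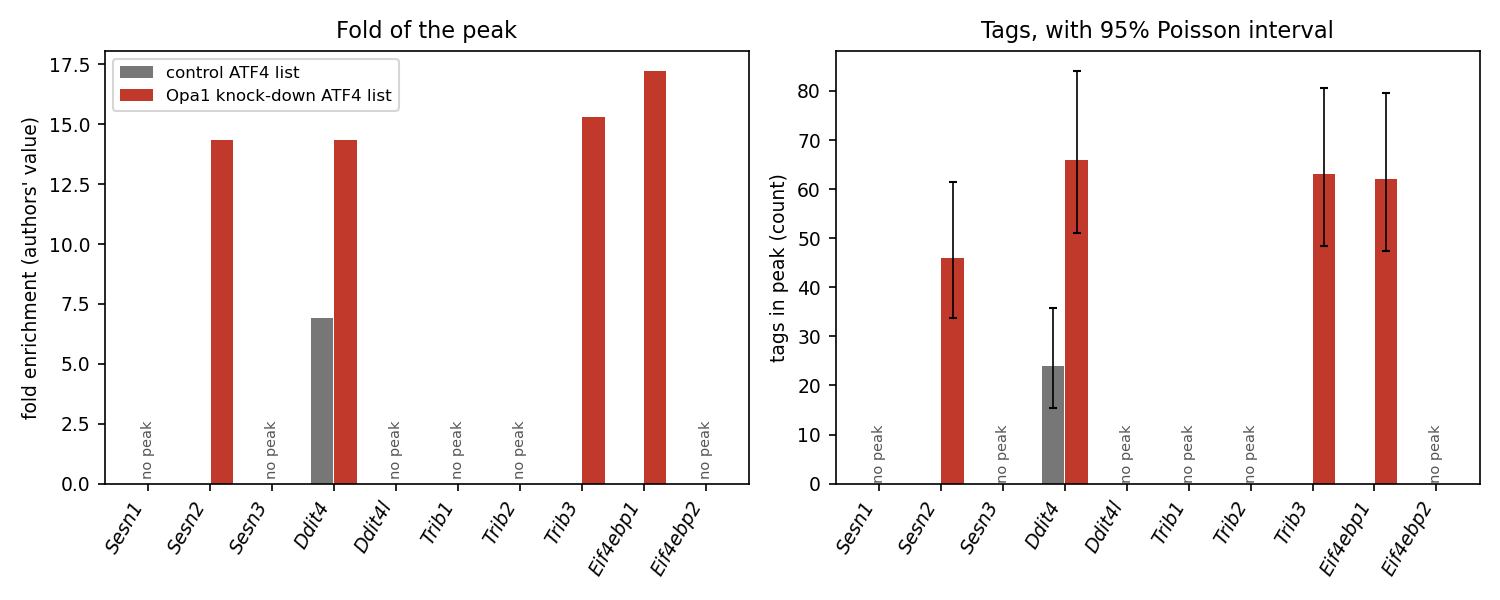
Fold enrichment (left) and tag number with its 95% Poisson interval (right) of the peak assigned to each of the 10 genes, in the control list (grey) and the Opa1 knock-down list (red). Knock-down bars stand for Sesn2, Ddit4, Trib3 and Eif4ebp1 at folds of 14.34 to 17.21, and the 1 control bar is Ddit4 at 6.9.

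The Trib3 promoter was the 1 promoter of these genes that lay inside a peak, so its sequence is shown beside that of its paralogue Trib2, which had no peak. RefSeq promoter windows (GRCm38.p6, 250 bases before to 50 after the start site) were at hand for 8 of the 10 genes, in 9 windows because Sesn1 has 2. Trib1 and Eif4ebp1 had no entry. The 250 bases upstream of each start site follow, 5′ to 3′ on the gene's minus strand, all in lower case because the element searched for was not found in them. Trib3 is chr2:152344061-152344310 and Trib2 is chr12:15816786-15817035.
Trib3 upstream: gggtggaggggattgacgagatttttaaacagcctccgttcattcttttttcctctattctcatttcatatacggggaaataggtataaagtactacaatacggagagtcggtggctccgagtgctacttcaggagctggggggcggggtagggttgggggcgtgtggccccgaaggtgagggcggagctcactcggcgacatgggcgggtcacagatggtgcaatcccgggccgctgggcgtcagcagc
Trib2 upstream: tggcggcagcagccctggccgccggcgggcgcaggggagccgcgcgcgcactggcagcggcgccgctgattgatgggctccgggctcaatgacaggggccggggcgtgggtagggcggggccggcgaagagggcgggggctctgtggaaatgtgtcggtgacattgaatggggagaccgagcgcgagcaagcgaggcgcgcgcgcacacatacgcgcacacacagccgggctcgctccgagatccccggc

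The element searched for was TGATGCAA, a form of the composite ATF and C/EBP element, on both strands, and a looser form TGATGNAA, whose matches include every match of the first. TGATGCAA was found in 0 of the 9 windows. TGATGNAA was found in 1, that of Trib3, just downstream of the start site. The 30 bases around that match, at chr2:152344028-152344057 and read on the gene's strand, are shown with the match in capitals.
Trib3 site: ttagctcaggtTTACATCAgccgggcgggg

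The capitals are the reverse complement of the looser form, and cover positions 15 to 22 counted from 1 at the start site. The knock-down summit lay 6 to 13 bp from the bases of the match. Over all 32851 promoter windows, 0.895% held TGATGCAA and 3.97% held TGATGNAA. These windows span 27025 genes and were not limited to coding genes. Of the 41 windows that themselves held a knock-down summit, the Trib3 window among them, 18 held TGATGCAA (43.9%) and 25 held TGATGNAA (61.0%). Of the 11 windows with a control summit 5 held the first form and 8 the second. These are matches of letters in a window, with no test.

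The upstream windows of these genes had a median G and C share of 70.0% over the 9 windows against 52.4% over all windows. The set of all windows was not limited to coding genes. Trib3 had the lowest share, 57.2%, and Trib2 the highest, 73.6%. The other 8 windows did not touch a knock-down peak: that of Ddit4 was 512 bp from one, that of Sesn2 was 3044 bp away, and the other distances were at least 241691 bp.

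Sesn2 was the sestrin with a peak. The knock-down list placed it at chr4:132513750-132514489 (mm10), outside the gene, with the summit 3664 bp upstream of the start site. Its fold was 14.34, from 46 tags (95% Poisson interval 33.7 to 61.4), and it stood at position 170 of 952 in the deposited order. The next coding gene was Atpif1, an inhibitor of the mitochondrial ATP synthase, 16435 bp from the summit. The control list had no peak within 50 kb of Sesn2, and its nearest control summit was 3300 kb away.

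The paralogues Sesn1 and Sesn3 were far from any summit of either list. The nearest knock-down summit was 847 kb from Sesn1 and 1670 kb from Sesn3, and the nearest control summits were 3470 kb and 23400 kb away. Both genes are longer than Sesn2, at 97863 and 49834 bp against 17653 bp, and so had the wider windows. SESN1 and SESN3 belong to the same protein family as SESN2 and are better known as targets of p53 and FOXO factors respectively.

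Ddit4 was the 1 gene of the 10 with a peak in both lists. The control peak, at chr10:59952789-59953260 (mm10), had 24 tags (95% Poisson interval 15.4 to 35.7) at a fold of 6.9 and stood at position 43 of 93. The knock-down peak, at chr10:59952532-59953326, had 66 tags (51.0 to 84.0) at a fold of 14.34 and stood at position 56 of 952. Both summits were upstream of the start site, outside the 2096 bp gene: the control summit was 1255 bp away and the knock-down summit 1160 bp away.

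The control interval of Ddit4 lay wholly inside the knock-down interval, with 472 bp in common, and the summits were 95 bp apart. The median distance between summits over the 80 pairs of overlapping peaks was 32 bp. The ratio of knock-down to control fold at Ddit4 was 2.08, beside a median of 2.26 over the 80 pairs, of which 49 had a larger ratio than Ddit4. The knock-down fold was the higher in 75 of the 80 pairs. Folds are not scaled between the libraries, so this ratio does not measure a gain at Ddit4. Within the control list 48 of 93 peaks had a higher fold than Ddit4, and within the knock-down list 88 of 952 had a higher fold.

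Ddit4l, which encodes the related protein REDD2, had no peak in either list. Its nearest knock-down summit was 237 kb away, with a fold of 7.65, and its nearest control summit was 29200 kb away. Of the 6 genes without a peak it had the closest knock-down summit, so no gene lay just outside the 50 kb window. The farthest summit inside the window was that of Sesn2, at 3664 bp.

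Trib3 was the tribbles gene with a peak. Its knock-down peak, at chr2:152343665-152344438 (mm10), covered the whole promoter window printed above, and the summit was inside the gene, 8 bp downstream of the start site. It reached a fold of 15.3 with 63 tags (95% Poisson interval 48.4 to 80.6), at position 63 of 952. The next coding gene was Rbck1, 11389 bp away, and the nearest control summit was 15300 kb away.

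Trib1 and Trib2 encode pseudokinases that bring the ubiquitin ligase COP1 to C/EBP proteins. Neither had a peak. The nearest knock-down summit was 1740 kb from Trib1 and 3050 kb from Trib2. For Trib2 the nearest control summit, 2450 kb away, was closer than the nearest knock-down summit, which was not so for any of the other 9 genes.

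Eif4ebp1, which encodes 4E-BP1, had the highest fold among the 4 knock-down peaks. The peak was at chr8:27260883-27261569 (mm10), and reached 17.21 with 62 tags (95% Poisson interval 47.5 to 79.5), at position 53 of 952. Its summit lay inside the gene, 900 bp from the end with the lower coordinate and 14429 bp from the other. The strand of this gene was not in the promoter table, so the distance to a start site is not given. The next coding gene was Adrb3, 30382 bp away, and the nearest control summit was 15600 kb away.

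Eif4ebp2 encodes 4E-BP2, the form known as the main 4E-BP of the brain. It had no peak, with the nearest knock-down summit 1230 kb away and the nearest control summit 1480 kb away. The third paralogue, Eif4ebp3, was in the list of cap-dependent translation genes below and had no peak within 50 kb in either list.

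**Figure D2:**
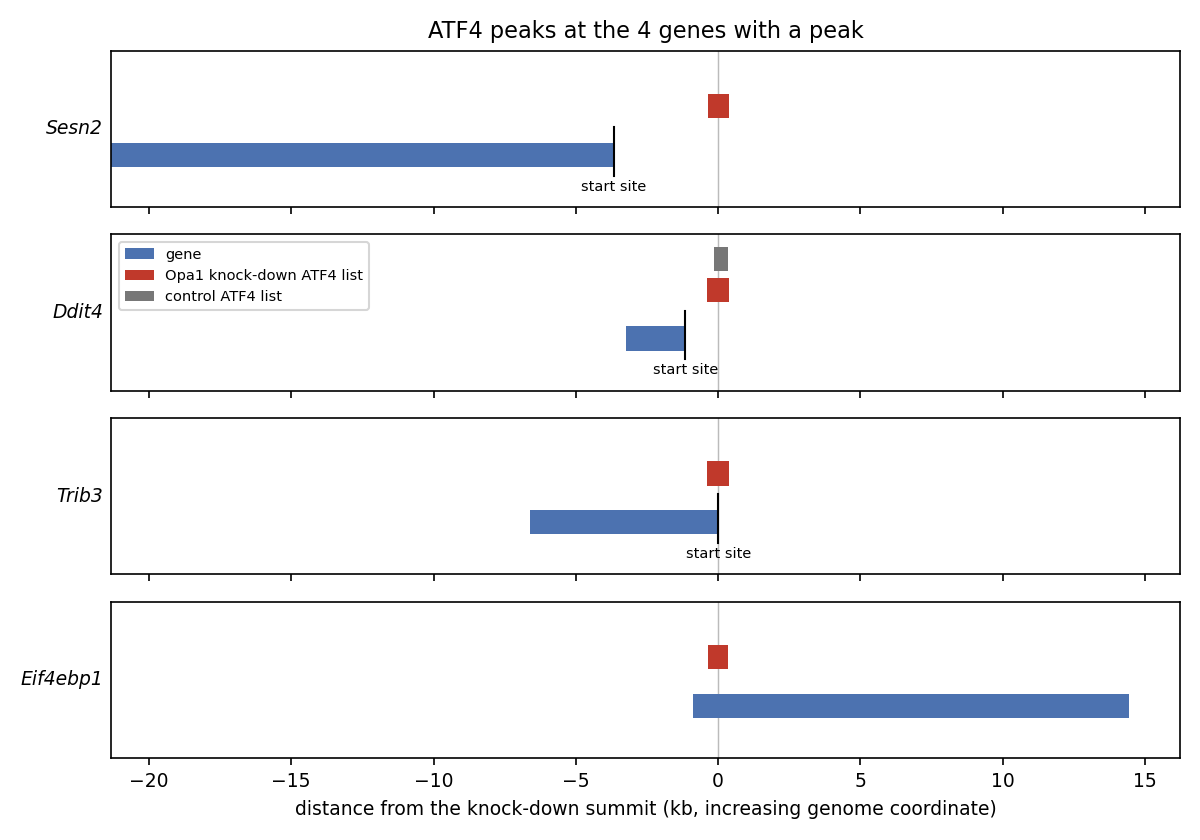
Position of the peaks at the 4 genes with a peak, in kb from the knock-down summit along the genome, with the gene in blue and the start site marked where its strand was known. The knock-down peak (red) is upstream of Sesn2 and Ddit4, on the start site of Trib3 and near the lower-coordinate end of Eif4ebp1, and the control peak (grey) is present at Ddit4 alone.

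The 4 knock-down peaks were close in fold, from 14.34 to 17.21 (median 14.8), but Sesn2 stood lower by tags and position. Sesn2 had 46 tags and stood at position 170 of 952. Ddit4, Trib3 and Eif4ebp1 had 62 to 66 tags and stood at positions 53 to 63. The Poisson intervals of the tags overlapped for every pair, but they cover counting error only and do not show that the peaks are equal. Within the knock-down list 10.3% of peaks had a fold at least as high as Sesn2 and Ddit4, 8.82% as high as Trib3 and 5.99% as high as Eif4ebp1. In tags per kb of peak they ran from 62.2 at Sesn2 to 83.0 at Ddit4, 81.4 at Trib3 and 90.2 at Eif4ebp1. Their widths were 687 to 795 bp, above the list's median of 589.5 bp.

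**Figure D3:**
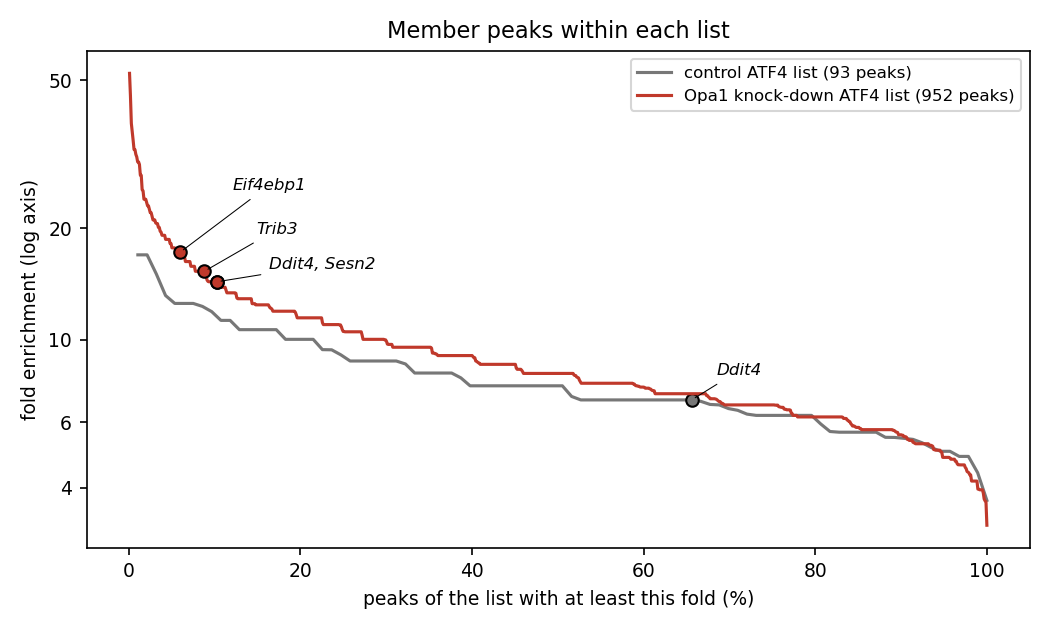
Fold enrichment on a log axis against the share of the list with at least that fold, for the control list (grey, 93 peaks) and the Opa1 knock-down list (red, 952 peaks). The 4 knock-down peaks of the listed genes lie in the upper 10.3% of their list, and the Ddit4 control peak lies at 65.6% of the control list.

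How often a knock-down peak of this fold also appeared in the control list was counted over all peaks. Of the 46 knock-down peaks with a fold between 14.34 and 17.21, these 4 included, 13 overlapped a control peak (28.3%). The share was 78.8% of the 52 peaks above that range and 3.04% of the 854 below it. Among the 4 genes the count was 1, Ddit4. The lowest fold in the control list was 3.71 and the lowest tag number 15, and absence from this list does not show that a site was free of ATF4.

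**Figure D4:**
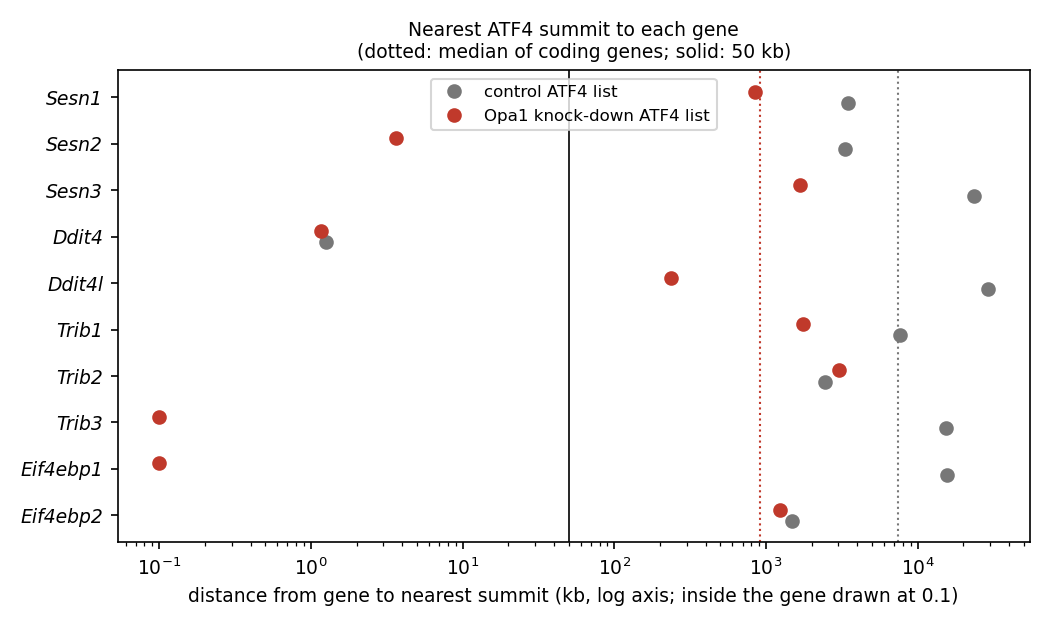
Distance from each of the 10 genes to the nearest summit of the control (grey) and Opa1 knock-down (red) lists, in kb on a log axis, with a solid line at 50 kb and dotted lines at the median over all coding genes. Knock-down summits lie within 3.66 kb of Sesn2, Ddit4, Trib3 and Eif4ebp1, and at 237 to 3050 kb from the other 6 genes.

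Over all coding genes on a chromosome with a peak, the median distance to the nearest summit was 909 kb in the knock-down list and 7430 kb in the control list. For the 6 genes without a knock-down peak it ran from 237 to 3050 kb, on both sides of that median. For the 9 genes without a control peak it ran from 1480 to 29200 kb, again on both sides.

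The wider pathway was followed in 100 further genes in 5 lists. In the knock-down list 11 of them (11.0%) had a summit inside or within 50 kb and in the control list 1 (1.0%), beside the same backgrounds of 6.23% and 0.927%. Within 5 kb the counts were 7 (7.0%) and 0, beside backgrounds of 2.65% and 0.324%. These lists hold longer genes than average, with median lengths from 20088.5 to 81856.5 bp against 17169 bp over coding genes, and a longer gene has a wider window. The part of length in these counts was not tested. The counts of each list below are to be read beside these 50 kb backgrounds of 6.23% and 0.927%.

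Among 14 genes of the TOR complexes, TSC and Rheb, 2 had a knock-down summit and 1 a control summit. Deptor, which encodes an inhibitory partner of mTOR, held a knock-down peak 27243 bp inside the gene with a fold of 9.75. Akt1s1, which encodes the inhibitory mTORC1 subunit PRAS40, was counted through a peak of both lists (folds 12.54 and 31.07) whose summits lay 30153 and 30103 bp away, inside Nup62 and Il4i1b. Among 28 genes of amino acid sensing, the branch on which sestrins act, 0 had a summit in either list. At the backgrounds given above, 28 genes are too few to read this 0 as a result about that branch.

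Among 22 genes of PI3K and AKT signalling, 4 had a knock-down summit and 0 a control summit. Grb10, an adaptor that dampens insulin receptor signalling, had a peak inside the gene, 956 bp from its nearer end, with a fold of 5.54. Its summit lay 948 bp downstream of a start site. Gsk3b, a kinase inhibited by AKT, had one 6430 bp inside the gene with a fold of 10.52. The insulin receptor substrates Irs1 and Irs2 were counted through peaks 25517 and 31821 bp away, with folds of 8.6 and 10.52, of which the first lay inside Rhbdd1.

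Among 19 genes of S6 kinase and cap-dependent translation, 2 had a knock-down summit and 0 a control summit. Mknk1, a kinase of eIF4E, had a peak inside the gene with a fold of 8.13. Larp1, a repressor of the translation of ribosomal protein mRNAs, had one inside the gene with a fold of 5.49. The Larp1 and Grb10 peaks carry a rarer form of the deposited values, with a stated length shorter than the interval, and whether their folds share a scale with the other peaks was not tested.

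Among 17 genes of AMPK and other partners, 3 had a knock-down summit and 0 a control summit. Stk40, a pseudokinase related to the tribbles family, had a peak 603 bp outside the gene with a fold of 14.49 and 54 tags, at position 85 of 952. That fold was between those of Sesn2 and Trib3. Prkaa2, a catalytic subunit of AMPK, held a peak 37614 bp inside the gene with a fold of 6.95, and Strada was counted through a peak 28252 bp away, inside Map3k3, with a fold of 6.21. Of the 11 pathway genes with a knock-down summit, Akt1s1 and Stk40 had peaks with a fold above 14.34.

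**Figure D5:**
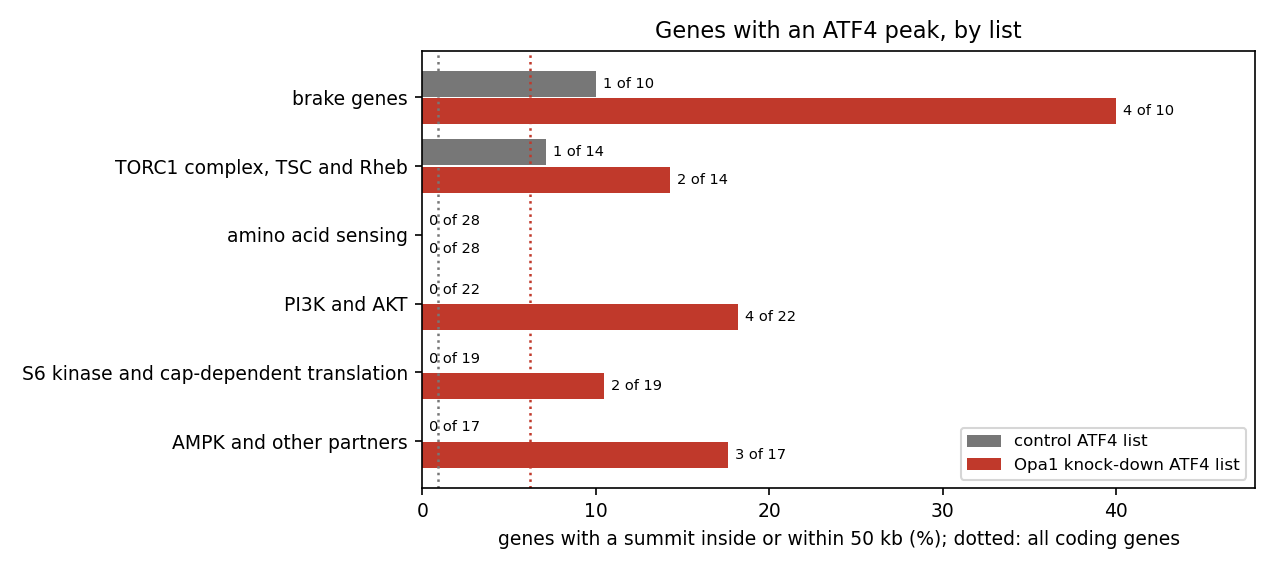
Share of genes with a summit inside or within 50 kb, for the 10 genes and for 5 lists of other pathway genes, in the control (grey) and Opa1 knock-down (red) lists, with the share over all coding genes as dotted lines. The 10 genes stand at 4 of 10 in the knock-down list, and the other lists run from 0 of 28 to 4 of 22.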

How the data were processed

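The deposited peak lists of the control and Opa1 knock-down ATF4 libraries were used, each tied to its library by the hairpin in its name. MACS2, deepTools, MultiQC and mm10 are named in the submitters' processing notes. The sources used here do not give the aligner, control library or thresholds. Position, order, fold, summit and tags are the authors' deposited values, and intervals were taken to count from 1, since the stated length then fits most peaks. The deposited score has 2 forms, and all member peaks are of the commoner form (84 control and 886 knock-down peaks).

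Genes were placed with RefSeq (GRCm38.p6, the same chromosome coordinates as mm10). Start sites and sequences came from RefSeq promoter windows of the same build. No other genome sequence was used here, so peaks outside those windows have no sequence. Distances run from the summit to the nearer gene end, or are 0 inside. Tags have exact 95% Poisson intervals for counting error only. No test was made, as each condition has 1 library. The members and lists were chosen with earlier results of these data known. All 10 genes are described, with any pathway gene whose window held a summit, the nearest coding genes, and Eif4ebp3, named after its value was seen. Gene assignment was tested on simulated peaks placed at or beyond the upper-coordinate end of genes. Summits placed inside a gene or below its lower-coordinate end were not tested. Software was Python 3.11.15 with scipy 1.17.1, pandas 2.3.3, numpy 2.4.6 and, for plots, matplotlib 3.10.9.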

Additional observations from a re-analysis of the deposited data

How the results depend on the processing

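Windows of 5, 20 and 100 kb, the better-scoring 50% of each list, the nearest-gene rule and the first score form alone (chosen after the data were seen) left every count and the median fold of 14.8 as reported. The stricter overlap rules, which bear on the shared peak alone, left it at 1. Of 45 alternative values 41 did not move, but many of them could not. The summits nearest these genes lay within 3664 bp or at least 237 kb away, so these other windows could not change a count. All member peaks were of the first form with the member as nearest coding gene, so those 2 rules could not either. The tally is therefore no measure of robustness. With a fold of at least 10 asked for, the control list gave 0 genes and 0 peaks in place of 1, and 0 shared peaks, because the Ddit4 control peak has a fold of 6.9, while the 4 knock-down peaks stayed. The looser element TGATGNAA matched 1 gene, Trib3, where TGATGCAA matched 0. No paired analysis was possible because there was a single library of each kind, and none could be left out. Depth is unknown, which limits what absence from the control list can show.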
